A study of Mus musculus with 12 samples.

Results

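The genes described here encode the proteins of the cytosolic ribosome in mouse 3T3 cells, a fibroblast cell line. They were taken by symbol (Rpl or Rps with a number and at most 1 letter, Rplp0 to Rplp2, and Rpsa), which found 82 of the 32544 rows of the gene table, 50 of the large subunit and 32 of the small subunit. RNA was sequenced from 3T3 cells in 4 groups of 3 libraries. One group was untreated, and the others received, for 24 h, extracellular vesicles (EVs) shed by cells of MDA-MB-468, a line of human breast carcinoma. The EV donors were control cells (shCon), cells with CRIPTO knocked down (shCr) or cells that overexpressed CRIPTO, a cell-surface protein (CrOE). All groups were the same recipient line. The CrOE libraries carry just the word Cripto in the count table and were matched to their group by elimination. CRIPTO was altered in the donors, whose own RNA was not analysed here. Nothing in the labels says that the 3 libraries of a group came from separate cultures, so every p-value measures the spread between these libraries, which may be technical.

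Each ribosome has a small subunit, which decodes the mRNA, and a large subunit, which joins amino acids and holds the tunnel through which the new protein leaves. Cells make the ribosomal proteins in near-equal numbers, and most of the control is at translation: their mRNAs begin with a C followed by a run of pyrimidines, the TOP motif, through which mTOR signalling and LARP1 act. Growth signals such as MYC also raise transcription of these genes and of the factors that assemble ribosomes in the nucleolus. The mouse genome holds many processed pseudogenes of these genes, whose sequences are close to the parent mRNA, so that short reads can be shared between rows of a count table.

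Library totals ran from 25960054 to 27189953 estimated counts in untreated cells, from 27811383 to 30177901 in the shCon group, from 28734910 to 37774020 in the shCr group and from 31389839 to 35490290 in the CrOE group. The filter on low counts passed 14279 genes, among them 78 ribosomal protein genes (47 large, 31 small). Of the 4 that did not pass, Rpl10l and Rpl39l had 0 counts in every library, Rpl3l had at most 5 and Rps4l at most 1. Rpl6l passed at no more than 1.8 CPM (counts scaled to a fixed library total). The 8 fibroblast markers together held 14310 to 15030 CPM in untreated cells, 16660 to 16820 in the shCon group, 11010 to 12730 in the shCr group and 4641 to 4823 in the CrOE group, where Lum was under 1 CPM. The 6 leukocyte markers held 48.6 to 59.4, 82.0 to 92.5, 129 to 193 and 4.57 to 5.99 CPM in the same order, with Ptprc, Adgre1 and Tyrobp under 1 CPM in every library. The 6 epithelial markers held at most 3.30 CPM and the 4 endothelial markers at most 2.56 CPM in any library. The part of these shifts in the results for ribosomal protein genes was not tested.

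Ribosomal protein genes took a larger share of the library after CrOE EVs than in the other groups, apart from 1 shCr library that came close. Their share of the estimated counts was 3.59%, 3.46% and 3.27% in the 3 untreated libraries and 3.48%, 3.37% and 3.36% after shCon EVs. It was 4.30%, 3.45% and 3.28% in the shCr group and 4.60%, 4.64% and 4.35% after CrOE EVs. On this share the 3 CrOE libraries stood above all others, and replicate 1 of the shCr group stood above the other 2 of its group. On log2 CPM minus the untreated mean, the median ribosomal protein gene of shCr replicate 1 (0.361) lay above that of CrOE replicate 3 (0.352). By that measure the shCr and CrOE groups overlapped. Mean shares were 3.44% ± 0.162, 3.41% ± 0.0668, 3.67% ± 0.548 and 4.53% ± 0.159 (SD, n = 3 each). In bulk RNA, more cells with a high level and more of these RNAs per cell cannot be told apart. The values are shares of each library's counts, so they do not give the amount of RNA per cell. Both subunits took a larger share after CrOE EVs. The large subunit took 2.13%, 2.11%, 2.27% and 2.83% of counts on average in untreated, shCon, shCr and CrOE libraries, and the small subunit 1.32%, 1.30%, 1.41% and 1.70%. The ratio of large to small subunit counts was 1.60, 1.61 and 1.64 in untreated libraries and 1.65, 1.67 and 1.69 after CrOE EVs. The untreated and CrOE ratios did not overlap, whereas the shCr libraries ran from 1.57, the lowest of all, to 1.655.

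**Figure D1:**
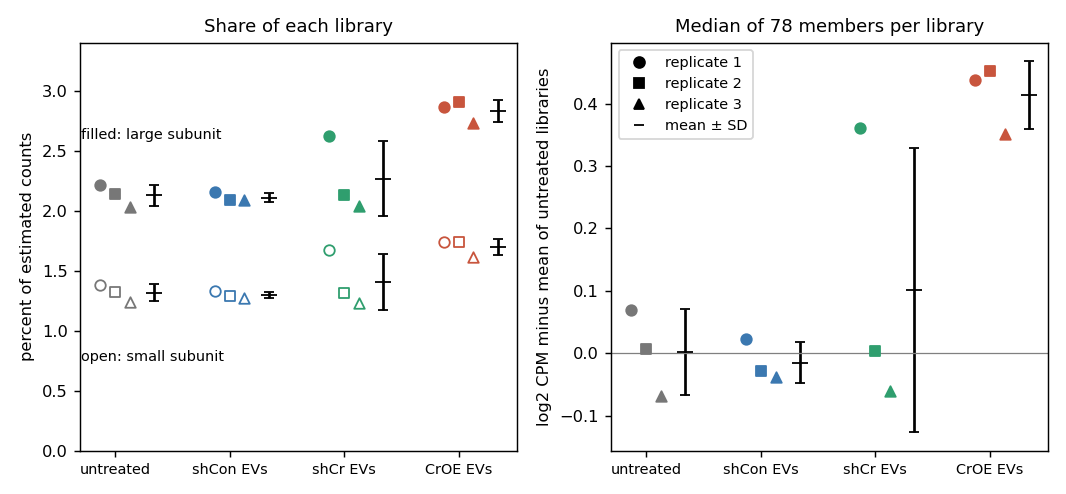
Left, percent of each library's estimated counts at large-subunit (filled) and small-subunit (open) genes; right, the median over 78 genes of log2 CPM minus the mean of the untreated libraries. Points are libraries (replicates 1 to 3) and bars are mean ± SD; the CrOE libraries lie at 0.35 to 0.45 in the right panel, and shCr replicate 1 lies at 0.36 while the other 2 shCr libraries lie at 0.00 and -0.06.

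The comparison of CrOE EVs with untreated cells asks what vesicles from CRIPTO-overexpressing donors did to the ribosomal protein mRNAs. Of 78 genes, 58 were called higher and 4 lower (edgeR's quasi-likelihood test, Benjamini-Hochberg adjusted p under 0.05), with a median log2 fold change of 0.41. Across all genes tested 36.7% were called higher and 37.0% lower (73.7% in all), with a median of 0.01, so that the share of members called higher was above the table's share and the share called lower was below it. In 58 genes every CrOE library was above every untreated library, and in 6 every one was below, against 38.8% of all genes in each direction. By subunit, 34 of 47 large-subunit genes were called higher and 3 lower (median 0.40), and 24 of 31 small-subunit genes were called higher and 1 lower (median 0.41). Unadjusted p-values under 0.05 were found for 58 genes higher and 5 lower, and DESeq2 called the same numbers.

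**Figure D2:**
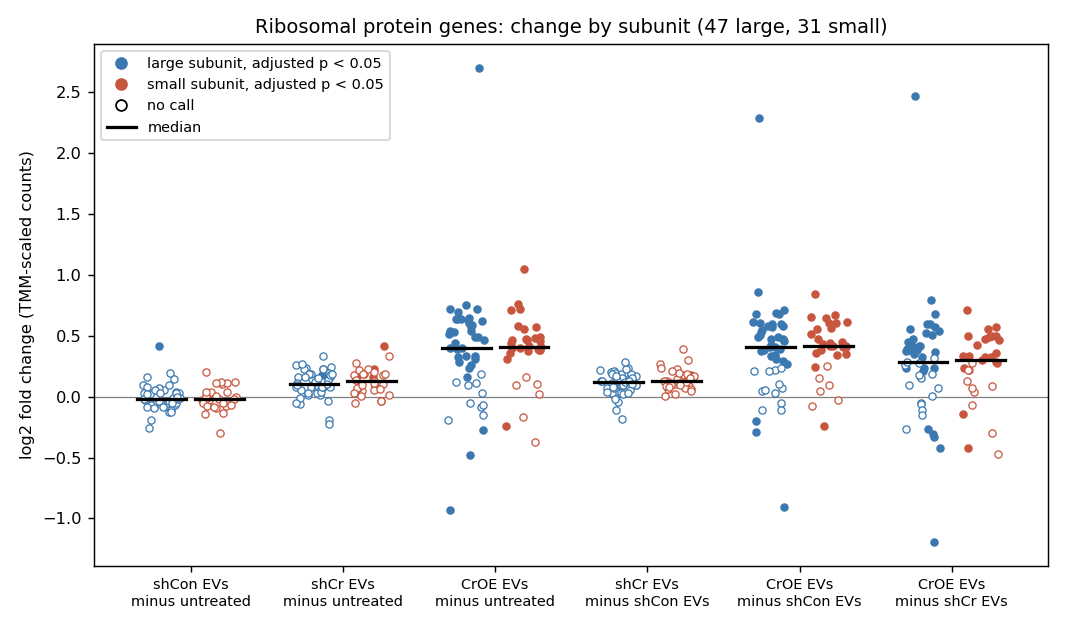
Log2 fold change of each of the 47 large-subunit (blue) and 31 small-subunit (red) genes in the 6 comparisons; filled points passed an adjusted p of 0.05 in edgeR and black lines are medians. The medians of both subunits lie near 0.4 for CrOE EVs against untreated cells (0.40 and 0.41) and near 0 for shCon EVs (-0.02 each), and 1 large-subunit gene, Rpl12, stands far above the rest at 2.70.

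Genes of the large-subunit stalk, which recruits and activates the translation factors that hydrolyse GTP, were called higher in 4 of 4 cases. Their median log2 fold change was 0.71. Over all 78 members 74.4% were called higher, and over all genes 36.7%. Those shares also stand beside the counts for other parts of the ribosome below. Rplp0, the protein that anchors the stalk, was at 2158, 2114 and 2024 CPM in untreated libraries, 2135, 2133 and 2114 in the shCon group, 2568, 2113 and 2069 in the shCr group and 3408, 3565 and 3248 in the CrOE group. The CrOE libraries did not overlap any other library, and shCr replicate 1 was the highest of the rest. The change against untreated cells was 0.70 ± 0.0738 on the log2 scale (SE, 3 libraries per group, edgeR adjusted p = 1.81e-06). Rplp1, one of the paired acidic proteins that form the moving part, went from 977, 995 and 899 CPM in untreated cells to 1561, 1650 and 1512 after CrOE EVs, a log2 fold change of 0.72 (edgeR adjusted p = 1.69e-06). Rplp2, its partner, went from 360, 356 and 322 CPM to 492, 495 and 471, a log2 fold change of 0.49 (edgeR adjusted p = 4.08e-05). None of these CrOE values overlapped the untreated ones.

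Rpl12, which sits at the base of the stalk, showed the largest change of any member in its own row, which held far fewer counts than a pseudogene row that shares its sequence. Its own row held 27.8, 34.7 and 26.0 CPM in untreated libraries, 38.5, 37.5 and 41.8 in the shCon group, 38.5, 33.2 and 32.2 in the shCr group and 196, 203 and 178 in the CrOE group, a 6.51-fold change (log2 2.70 ± 0.106, edgeR adjusted p = 9.72e-11). The row of the pseudogene Gm10275, which shares sequence with Rpl12, held 857, 824 and 786 CPM in untreated libraries and 1248, 1296 and 1152 after CrOE EVs. With all pseudogene rows of Rpl12 added, the totals were 885, 860 and 812 CPM untreated, 911, 869 and 878 in the shCon group, 1127, 862 and 820 in the shCr group and 1452, 1507 and 1335 in the CrOE group. These sums also kept the CrOE libraries above all others. The summed change was 1.68-fold (log2 0.75, edgeR adjusted p = 1.52e-05), beside 0.70, 0.72 and 0.49 on the log2 scale for Rplp0, Rplp1 and Rplp2, and the own row held 3.14% to 13.5% of the sum. How the authors shared out reads that match several rows is not stated, and transcripts of the gene and of the pseudogene cannot be told apart in these rows, so the 6.51-fold value is that of the row.

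Other members also had pseudogene rows with more counts than their own. Assigning 255 pseudogene rows to 65 members by shared 31-base stretches left 12 members with less than 50% of their summed counts in their own row in every library: Rpl3, Rpl5, Rpl12, Rpl21, Rpl27, Rpl27a, Rpl29, Rpl34, Rpl35a, Rps2, Rps7 and Rps23. Rps2, a protein at the mRNA entry of the small subunit, had 10.7, 14.0 and 11.5 CPM in its own untreated row and 17.4, 15.0 and 17.6 after CrOE EVs, while Rps2-ps13 held 1369 to 1456 CPM untreated and 1756 to 1898 after CrOE EVs. Its own row was 0.635% to 0.898% of the sum. On the sums, Rps2 rose by a log2 fold change of 0.37 (edgeR adjusted p = 6.13e-05) and Rpl5 by 0.67 (0.000469), whereas Rpl27 changed by 0.20 (0.155) and Rpl3 by 0.06 (0.483), so that the calls of these last 2 were not kept. On the sums as a whole 56 genes were called higher and 5 lower of 78 (32 and 4 large, 24 and 1 small), with a median of 0.41 and a range from -0.92 for Rpl37a to 1.06 for Rps12.

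**Figure D3:**
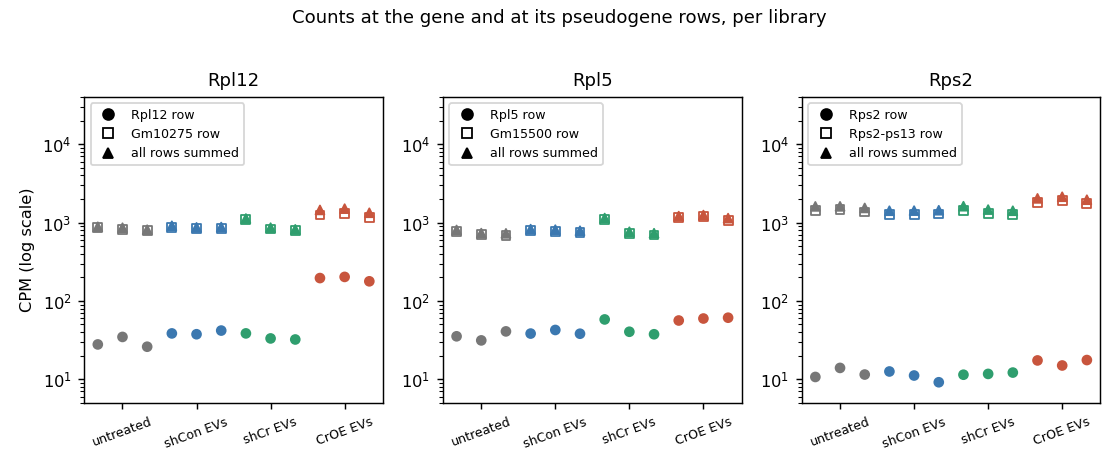
CPM (log axis) per library at the rows of Rpl12, Rpl5 and Rps2 (circles), at the largest pseudogene row of each (squares) and at all assigned rows summed (triangles). The own row lies far under the pseudogene row in every library, and the gap narrows for Rpl12 after CrOE EVs, where its row is at 178 to 203 CPM.

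Among members with most of their counts in their own row, Rps12, a protein of the small subunit's beak, rose most. It was at 265, 318 and 206 CPM in untreated libraries, 307, 294 and 309 in the shCon group, 385, 305 and 305 in the shCr group and 572, 543 and 519 in the CrOE group. The CrOE libraries were separate from all others, and the untreated libraries varied most. The change was 2.07-fold (log2 1.05 ± 0.130, edgeR adjusted p = 8.48e-06). Rpl13a, a large-subunit protein also known from the complex that silences inflammatory mRNAs in macrophages, went from 744, 669 and 659 CPM to 1192, 1214 and 1095 (log2 0.76, edgeR adjusted p = 0.00034). Rps18, in the head of the small subunit, went from 74.4, 73.9 and 66.0 CPM to 123, 118 and 113 (log2 0.72, edgeR adjusted p = 4.89e-06). Both were above untreated in every CrOE library. Rps7, whose own row is a minor part of its sum, had a log2 fold change of 0.76 in its row and 0.61 in the sum.

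Genes of proteins that line the peptidyl transferase centre and the tunnel were called higher in 5 of 6 cases (83.3%, against 74.4% of all members). Their median log2 fold change was 0.47. Rpl4, whose long loop reaches into the tunnel, was at 1219, 1188 and 1186 CPM untreated, 1258, 1232 and 1250 in the shCon group, 1331, 1188 and 1178 in the shCr group and 1828, 1950 and 1810 in the CrOE group (log2 0.64 ± 0.0547, edgeR adjusted p = 2.35e-07). Rpl8, near the catalytic centre, went from 841, 839 and 788 CPM to 1264, 1316 and 1220 (log2 0.62, edgeR adjusted p = 1.69e-06). For both genes the CrOE libraries were above the rest without overlap. Rpl10, which joins the large subunit late in assembly, and Rpl17 had log2 fold changes of 0.41 and 0.53, and Rpl3 one of 0.31 in its own row, a call lost in 7 of 16 other settings and at 0.06 on the sums. Rpl39, a very short protein in the tunnel wall, did not pass, with 314, 267 and 269 CPM untreated and 279, 281 and 248 after CrOE EVs (log2 -0.07, edgeR adjusted p = 0.673). The ring of proteins round the tunnel exit, where chaperones and the signal recognition particle bind, had 5 of 5 genes called higher with a median of 0.34. They ran from 0.29 for Rpl23a through 0.32 for Rpl31, 0.34 for Rpl19 and 0.46 for Rpl26 to 0.57 for Rpl35.

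Genes of the mRNA channel of the small subunit were called higher in 5 of 7 cases and lower in 1. Their median log2 fold change was 0.39. The 71.4% called higher was near the 74.4% of all members (36.7% of all genes). Rps3, at the mRNA entry, was at 731, 646 and 646 CPM untreated, 681, 655 and 655 in the shCon group, 943, 645 and 593 in the shCr group and 1012, 1071 and 938 in the CrOE group (log2 0.58 ± 0.135 against untreated cells, edgeR adjusted p = 0.00168). The CrOE libraries were above every untreated and shCon library, and shCr replicate 1 lay among them. Rps2 had a log2 fold change of 0.47 in its own row, Rpsa, which doubles as a laminin receptor precursor, one of 0.39, and Rps26 one of 0.31. Rps14 did not pass (log2 0.10, edgeR adjusted p = 0.52), and Rps28 was called lower.

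Of 3 genes listed here for proteins that bind MDM2, the ubiquitin ligase of p53, 2 were called higher and 1 lower. The list was not meant to hold every member reported to bind MDM2. Rpl5 and Rpl11 form a particle with 5S ribosomal RNA that blocks MDM2 when ribosome assembly fails, and Rpl23 binds it as well. Rpl5 was at 35.3, 31.3 and 40.8 CPM untreated and 56.2, 59.6 and 61.0 after CrOE EVs (log2 0.72 ± 0.140, edgeR adjusted p = 0.000459). Rpl23 was at 583, 530 and 519 CPM untreated and 637, 669 and 617 after CrOE EVs (log2 0.24, edgeR adjusted p = 0.0424), and its call was lost in 7 of 16 other settings (adjusted p up to 0.132), among them each fit without 1 CrOE library. Rpl11 was at 406, 402 and 385 CPM untreated, 390, 368 and 374 in the shCon group, 483, 390 and 364 in the shCr group and 336, 334 and 315 in the CrOE group (log2 -0.28 ± 0.0844, edgeR adjusted p = 0.00972). Its CrOE libraries were the lowest of the set, and shCr replicate 1 was the highest. Of 9 genes listed here as mutated in Diamond-Blackfan anaemia, an inherited failure of red cell production, 8 were called higher and Rpl11 lower. Their median was 0.42. That is 88.9% called higher, where 74.4% of all members and 36.7% of all genes were. The list was not meant to be complete, and Rps28, also called lower, was not on it. Rps19, the gene mutated most often in that disease, had a log2 fold change of 0.41, Rps24 one of 0.56, Rps10 one of 0.42 and Rpl35a one of 0.64.

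The 4 genes called lower after CrOE EVs were Rpl37a, Rpl21, Rpl11 and Rps28. Rpl37a, a zinc-binding protein of the large subunit, was at 314, 288 and 282 CPM untreated, 286, 294 and 292 in the shCon group, 424, 333 and 306 in the shCr group and 162, 160 and 143 in the CrOE group. The CrOE values lay far under all others, and the change was to 0.526 of the untreated level (log2 -0.93 ± 0.101, edgeR adjusted p = 2.38e-06). Rpl21 was at 136, 123 and 128 CPM untreated, 115, 109 and 114 in the shCon group, 141, 120 and 111 in the shCr group and 92.9, 93.6 and 91.4 in the CrOE group (log2 -0.48 ± 0.0767, edgeR adjusted p = 8.32e-05). With its pseudogene rows added the change was -0.51 (edgeR adjusted p = 1.39e-05). Rps28, at the mRNA exit, was at 396, 415 and 378 CPM untreated, 400, 389 and 398 in the shCon group, 467, 442 and 437 in the shCr group and 329, 348 and 326 in the CrOE group (log2 -0.24 ± 0.0511, edgeR adjusted p = 0.000776). For Rpl21 and Rps28 too, the CrOE libraries were under all others. Rps27l was also lower in every CrOE library than in any untreated one, at 93.4, 95.3 and 79.5 against 131, 107 and 109 CPM, without passing the test (log2 -0.37, edgeR adjusted p = 0.122). Rpl36a, at log2 -0.20, did not pass in its own row (edgeR adjusted p = 0.0649) and passed on the sums (-0.21, adjusted p = 0.0302).

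**Figure D4:**
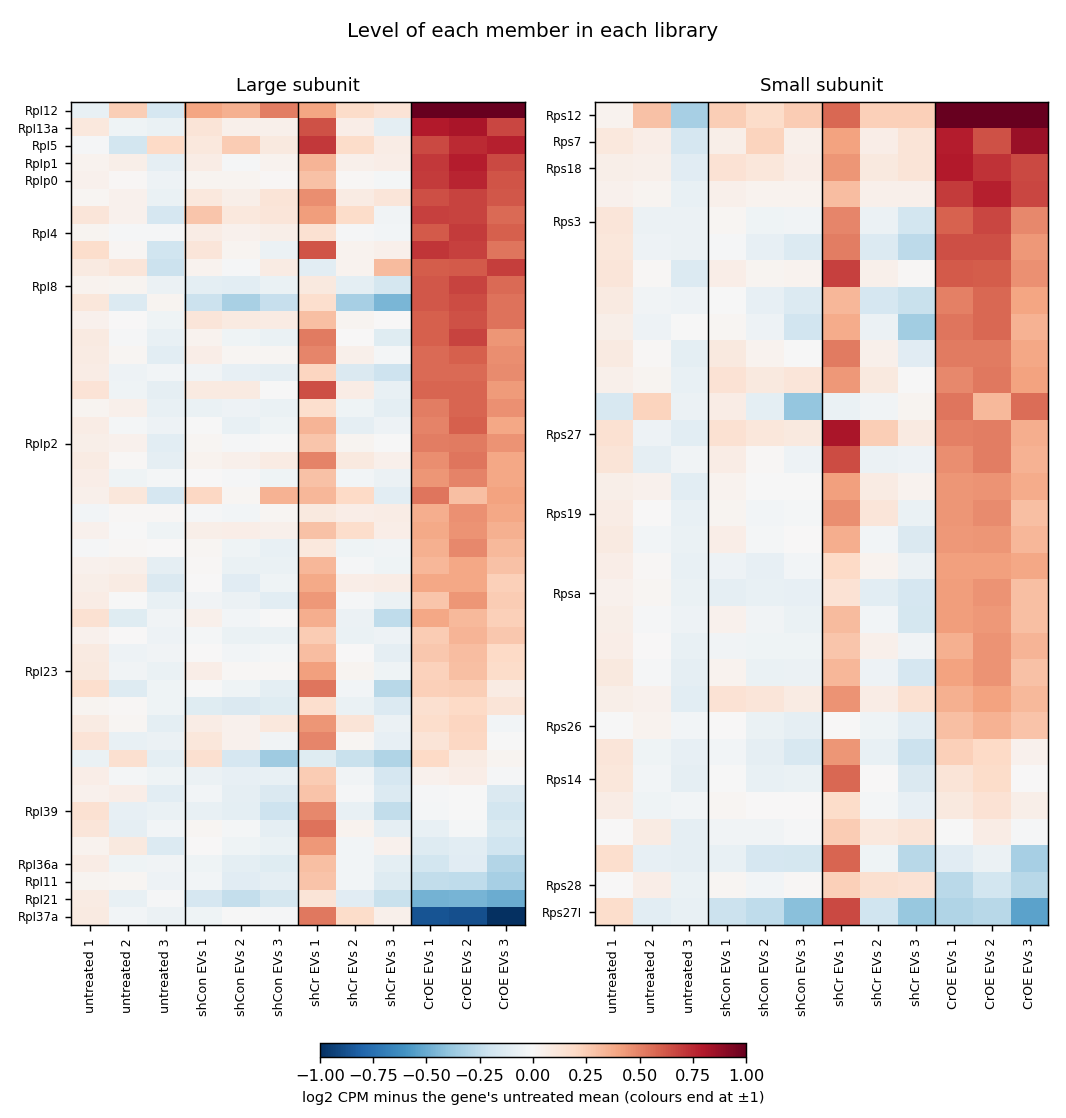
Log2 CPM of each gene in each library minus its mean over the untreated libraries, with colours ending at -1 and 1, for 47 large-subunit (left) and 31 small-subunit (right) genes ordered by the change after CrOE EVs, of which some are labelled. The 3 CrOE columns are red for most genes and blue for Rpl37a, Rpl21, Rpl11 and Rps28, and the column of shCr replicate 1 is red over most rows.

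The members with the shortest coding sequences had lower median changes after CrOE EVs. A coding length could be matched for 77 of the 78 genes (GENCODE M21). The median was 453 bases over all, 477 over the 58 called higher, 378 over the 4 called lower and 375 over the 15 with no call. Of the 12 genes under 320 bases, a limit chosen after the values were seen, 3 were called higher (Rps29, Rps27 and Rpl36), 2 lower (Rps28 and Rpl37a) and 7 neither, with a median log2 fold change of -0.11. Of the 65 others, 55 were called higher, 2 lower and 8 neither, with a median of 0.46. Across the 77 genes Spearman's rho between coding length and log2 fold change was 0.331 for CrOE EVs, 0.060 for shCon EVs and -0.304 for shCr EVs against untreated cells. For shCr replicate 1 alone it was -0.288. These are descriptions across genes, which share the same libraries and are not replicates.

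Start sites are shown for members at both ends of the range, because the pyrimidine run at the start of the mRNA is what marks this family. The RefSeq table of start sites (GRCm38.p6) had a window for 57 of the 78 genes. Each line gives 60 bases before and 20 from the annotated start, 5′ to 3′ on the gene's strand. Capitals mark a C followed by at least 4 C or T in a run that reaches within 10 bases of the annotated start. The first 5 are the genes with the highest change (Rpl12 at chr2:32961652-32961731 on the plus strand, Rps12 at chr10:23787190-23787269 on the minus strand, Rps7 at chr12:28635934-28636013 on the minus strand, Rpl13a at chr7:45128726-45128805 on the minus strand and Rps18 at chr17:33955646-33955725 on the minus strand). The last 3 were called lower (Rpl37a at chr1:72711200-72711279 on the plus strand, Rpl11 at chr4:136053374-136053453 on the minus strand and Rps28 at chr17:33824543-33824622 on the minus strand).
Rpl12: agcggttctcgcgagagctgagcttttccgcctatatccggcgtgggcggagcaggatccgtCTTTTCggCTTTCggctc
Rps12: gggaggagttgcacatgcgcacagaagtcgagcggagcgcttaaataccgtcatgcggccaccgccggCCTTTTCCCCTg
Rps7: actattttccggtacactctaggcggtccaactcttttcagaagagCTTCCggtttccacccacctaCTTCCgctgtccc
Rpl13a: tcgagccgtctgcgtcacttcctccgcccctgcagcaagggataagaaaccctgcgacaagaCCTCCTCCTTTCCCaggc
Rps18: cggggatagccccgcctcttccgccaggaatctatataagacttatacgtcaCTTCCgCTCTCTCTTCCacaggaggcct
Rpl37a: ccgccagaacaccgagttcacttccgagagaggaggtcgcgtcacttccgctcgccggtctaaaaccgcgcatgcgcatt
Rpl11: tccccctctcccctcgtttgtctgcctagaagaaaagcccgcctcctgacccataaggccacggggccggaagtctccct
Rps28: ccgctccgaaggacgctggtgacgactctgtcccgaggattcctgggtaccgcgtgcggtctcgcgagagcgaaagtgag

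The 5 windows of genes with a high change each hold a run marked in capitals, and the 3 of genes called lower hold none so near the start. Farther from the start, the windows of Rpl37a and Rpl11 also hold a C followed by at least 4 C or T. Over all 57 windows, 13 (22.8%) had the run at the annotated start itself, against 2.67% of 17492 protein-coding genes, and 35 (61.4%) within 10 bases of it, counting those at the start, against 34.9%. Among the 40 members called higher after CrOE EVs that had a window, 28 (70.0%) held the nearby run. The annotated start can differ from the start used in these cells, so a missing run says only that none lies near the annotated start. In the full windows of 300 bases, on either strand and with each motif counted on its own, CCGGAAG was in 42.1% of members and 12.9% of protein-coding genes, GGGCGG in 61.4% and 49.2%, AAGATGG in 15.8% and 7.18%, and TATAAA in 10.5% and 14.8%.

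The CrOE libraries were also set against the other EV groups, so that both sides had received vesicles. These comparisons share the CrOE libraries with the one above and are not independent of it. Against shCon EVs, 56 of the 78 members passed in the upward and 4 in the downward direction with a median log2 fold change of 0.41, where 36.5% of all genes were called higher and 36.1% lower (72.6% in all). In 63 genes the CrOE libraries were above every shCon library and in 5 below (40.7% and 39.8% of all genes). Large-subunit genes gave 32 higher and 3 lower of 47 (median 0.41) and small-subunit genes 24 and 1 of 31 (median 0.41). The stalk rose in 4 of 4 genes. The highest changes were those of the Rpl12 row (2.29), the Rpl27 row (0.86), Rps12 (0.84, edgeR adjusted p = 6.35e-05), Rpl8 (0.72) and Rplp1 (0.69). The lower calls were Rpl37a (-0.91, edgeR adjusted p = 3.12e-06), Rpl21 (-0.29, 0.00451), Rps28 (-0.24, 0.000834) and Rpl11 (-0.20, 0.0468), and the call of Rpl11 was lost in 9 of 16 other settings of the analysis.

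Against shCr EVs, 46 of the 78 passed upward and 7 downward with a median of 0.29, where 36.9% of all genes were called higher and 37.0% lower. In 30 genes the CrOE libraries were above every shCr library and in 7 below (37.1% and 36.9% of all genes). Large-subunit genes gave 27 higher and 5 lower (median 0.28) and small-subunit genes 19 and 2 (median 0.30). The 7 lower calls were Rpl37a (-1.19, edgeR adjusted p = 1.99e-07), Rps28 (-0.42, 6.42e-06), Rpl21 (-0.42, 0.000259), Rpl11 (-0.33, 0.00331), Rpl41 (-0.31, 0.0159), Rpl36a (-0.26, 0.0178) and Rps15 (-0.14, 0.0352). Without shCr replicate 1, which had the high share of these genes, 63 were called higher and 5 lower with a median of 0.43 (38.0% and 37.6% of all genes), and Rpl36a and Rps15 were no longer among the lower calls.

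After shCon EVs the ribosomal protein genes stayed near their untreated level. Against untreated cells 1 gene was called higher, Rpl12 (log2 0.41, edgeR adjusted p = 0.00748), and 0 lower, with a median of -0.02, while 18.0% of all genes were called higher and 20.2% lower (38.1% in all). In edgeR 1 gene higher and 1 lower had an unadjusted p under 0.05, and DESeq2 called 1 higher and 0 lower. Without untreated replicate 2 there were 2 calls. The call of Rpl12 was lost when its pseudogene rows were added (0.06, edgeR adjusted p = 0.691). On those sums 0 genes were called higher and 2 lower, Rpl21 (-0.21, adjusted p = 0.0267) and Rps2 (-0.15, 0.0462). The lowest value in single rows was that of Rps27l, at 99.5, 96.5 and 86.4 CPM against 131, 107 and 109 untreated (log2 -0.30, edgeR adjusted p = 0.285). Among large-subunit genes the median was -0.02, as it was among small-subunit genes. In 8 genes every shCon library was above every untreated one and in 8 below, against 26.6% and 27.7% of all genes.

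After shCr EVs 6 genes were called higher than in untreated cells and 0 lower, but 5 of the 6 calls were lost without 1 shCr library. Among them were Rps27 (log2 0.42, edgeR adjusted p = 0.0389), Rpl10a (0.23, 0.0458), Rps20 (0.23, 0.0462), Rps28 (0.18, 0.0147) and Rps15 (0.16, 0.0381). The median was 0.11, and 18.4% of all genes were called higher and 18.8% lower (37.3% in all). An unadjusted p under 0.05 was found for 13 genes higher and 0 lower, and DESeq2 called 9 and 0. In 8 genes every shCr library was above every untreated one and in 1 below, against 20.8% and 21.1% of all genes. Rps27 was at 507, 341 and 306 CPM after shCr EVs and 319, 278 and 268 untreated, so that the groups overlapped. In replicate 1 of the shCr group the median gene stood 0.36 above the untreated mean on the log2 scale, and in replicates 2 and 3 it stood at 0.00 and -0.06. That library also had 0.622% of its counts at mitochondrial genes, against 1.44% and 1.70% in the other 2 and 0.495%, 1.64% and 0.991% in untreated cells. The mitochondrial share was 1.347%, 1.639% and 1.605% after shCon EVs and 1.318%, 0.693% and 1.439% after CrOE EVs. In each group the library with the lowest mitochondrial share had the highest share of ribosomal protein genes. The part of these differences was not tested.

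Without replicate 1, the comparison of shCr EVs with untreated cells called 1 gene higher, Rps28 (log2 0.15, edgeR adjusted p = 0.0276), and 8 lower, with a median of -0.03, and 22.3% and 23.7% of all genes. The 8 included Rpl14, Rpl21, Rpl27, Rpl8, Rps27a, Rps27l and Rpsa, from -0.14 for Rpl8 and Rpsa to -0.40 for Rpl27. Without shCr replicate 3, 17 genes were called higher, without untreated replicate 1 there was 1, and without untreated replicate 3 there were 0 calls in edgeR. Rps28 was the one gene called higher with and without shCr replicate 1. Its call was lost in 4 of 16 other settings, among them the fits without untreated replicate 1 and without untreated replicate 3. Between shCr and shCon EVs, which differ in donor CRIPTO, 1 gene was called higher, Rps28 (log2 0.18, edgeR adjusted p = 0.0476), and 0 lower, with a median of 0.12 and 5.22% and 3.51% of all genes (8.73% in all). An unadjusted p under 0.05 was found for 4 genes higher and 0 lower, and DESeq2 called 2 and 0. In 8 genes every shCr library was above every shCon library and in 0 below, against 15.5% and 12.5% of all genes. The call of Rps28 was lost when any 1 of the 6 libraries was left out, 1 other gene passed without shCr replicate 3, and without shCr replicate 1 the median was -0.03. By subunit the medians against shCon EVs were 0.12 for large and 0.13 for small.

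Some ribosomal proteins have a paralogue, and the balance of 4 pairs could be followed. Whether each paralogue takes its partner's place in the ribosome was not tested. Ratios are of CPM and not per length, so only their differences between groups are read. They use each gene's own row, without pseudogene rows. Of the 31-base stretches, 98.7% in Rps27, 87.6% in Rpl36a, 64.4% in Rpl22l1 and 61.4% in Rpl7 also occur in another gene. For their partners Rps27l, Rpl36al, Rpl22 and Rpl7l1 it was 29.6%, 23.4%, 9.78% and 17.25%. The part of shared reads in the ratios was not tested. Rps27l, a p53 target nearly identical in protein to Rps27, was lower relative to it in each EV group: the log2 ratio of Rps27l to Rps27 was -1.32 ± 0.0473 in untreated, -1.73 ± 0.0848 in shCon, -1.68 ± 0.172 in shCr and -2.15 ± 0.0586 in CrOE libraries (SD, n = 3). The CrOE ratios were under all others. The ratio of Rpl36al to Rpl36a was -1.16 ± 0.0771, -1.11 ± 0.0468, -1.10 ± 0.0255 and -0.02 ± 0.0522 in the same order, a shift of 1.14 after CrOE EVs. Rpl36al itself went from 76.3, 78.2 and 72.9 CPM untreated to 146, 150 and 142 after CrOE EVs (log2 0.95, edgeR adjusted p = 2.48e-07), while Rpl36a went from 178, 165 and 165 to 149, 156 and 138.

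The ratio of Rpl22l1 to Rpl22, a pair in which Rpl22 is known to repress its paralogue, was -1.51 ± 0.142 untreated, -1.65 ± 0.0746 in shCon, -1.69 ± 0.289 in shCr and -1.18 ± 0.110 in CrOE libraries (SD, n = 3). Rpl22l1 alone did not pass between CrOE and untreated cells (log2 0.43, edgeR adjusted p = 0.109) and passed between CrOE and shCon EVs (0.55, 0.0498). The ratio of Rpl7l1 to Rpl7 was -3.73 ± 0.0386, -4.03 ± 0.0341, -4.06 ± 0.0268 and -3.65 ± 0.0566 in the same order. Rpl7l1 was called lower after shCon EVs (-0.32, edgeR adjusted p = 0.00565) and after shCr EVs (-0.25, 0.0206) and higher after CrOE EVs (0.33, 0.00154) than in untreated cells. Over the 4 pairs and 6 group comparisons, 15 of 24 ratios did not overlap between groups. No such share was computed for ratios of other gene pairs. Among single genes, 38.8% were higher and 38.8% lower without overlap between CrOE and untreated libraries. Between shCr and shCon libraries it was 15.5% and 12.5%. The count is therefore not read as a result about paralogues. With 3 libraries against 3, a two-sided exact permutation test cannot give less than 0.10, and the smallest p adjusted over the 24 tests was 0.16.

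**Figure D5:**
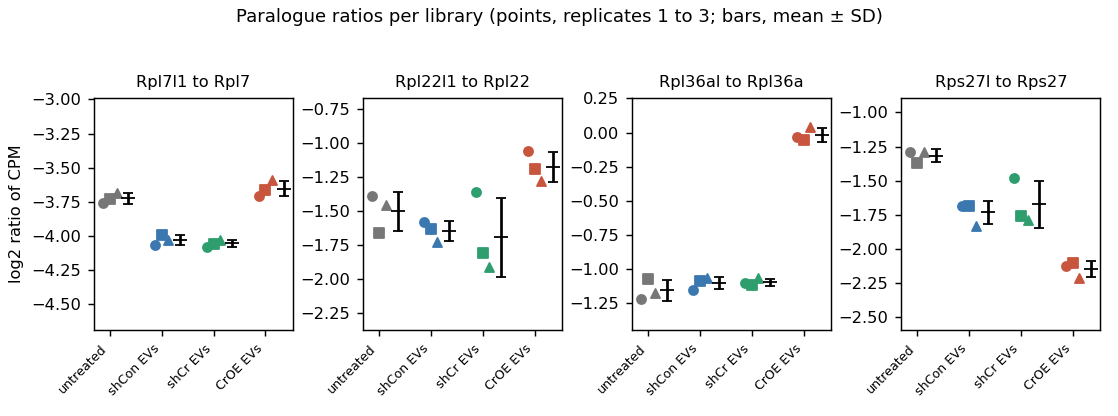
Log2 ratio of CPM of each paralogue to its partner in each library (points) with the mean ± SD of each group (bars). After CrOE EVs the ratio of Rpl36al to Rpl36a is near 0 against about -1.1 in the other groups (-1.16 to -1.10), and that of Rps27l to Rps27 is the lowest at -2.15.

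Genes that work beside these in translation and ribosome synthesis were counted in the same way, and the shares over all genes are those given above (36.7% higher and 37.0% lower after CrOE EVs). Among 6 genes outside the symbol rule, for ribosome components or paralogues, 5 were called higher after CrOE EVs than in untreated cells and 0 lower. Their median was 0.51, and they included Rack1, the scaffold on the small subunit (0.76), and Fau, which carries Rps30 (0.59). Rps3a1, left out by the rule and looked up after its values were known, had a log2 fold change of 0.57 (edgeR adjusted p = 0.000472). Of 18 other translation genes with TOP mRNAs, 13 were called higher and 2 lower (median 0.42), led among those named by Npm1 (1.28). The elongation factors Eef2 (0.52) and Eef1a1 (0.40) rose by amounts near the ribosomal protein median, and the initiation factors Eif3e (-0.63) and Eif4b (-0.22) fell.

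Ribosome assembly factors rose more: 40 of 41 were called higher and 0 lower after CrOE EVs, with a median of 1.26, and Nop10 was the exception (-0.10). Rrp12, needed for export of both subunits, had a log2 fold change of 2.19, the nucleolar GTPase Gnl3 2.14, Heatr1, needed for pre-rRNA transcription, 1.99, and the snoRNP protein Nop56 1.76. Against untreated cells, 4 of the 41 were called higher and 10 lower after shCon EVs (18.0% and 20.2% of all genes), and 3 and 19 after shCr EVs (18.4% and 18.8% of all genes). Of 11 growth-control genes, 5 (45.5%) were called higher and 2 lower after CrOE EVs, against 36.7% and 37.0% of all genes. Myc went from a mean of 34.9 to 235 CPM (log2 2.75, edgeR adjusted p = 5.49e-11), Eif4ebp1, the mTOR-regulated brake on initiation, had 1.64, Mdm2 0.71 and Larp1 0.46, and Rps6kb2 had -0.71. Genes of the mitochondrial ribosome, a separate set of proteins, were called in both directions, 31 higher (40.3%, near the 36.7% of all genes) and 22 lower of 77 with a median of 0.06, from 1.12 for Mrps18b to -1.15 for Mrps6. Of 274 rows named as ribosomal protein pseudogenes, 70 passed the filter, and 30 of these were called higher and 2 lower, with a median of 0.43.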

How the data were processed

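The deposited table holds estimated counts by gene symbol, with no scaling of libraries; 39.8% of the values were not whole. The submitters' processing notes name mm39 and featureCounts with no version or role, and the aligner, annotation and use of strand in counting are not given in the sources used here. Per the labels, poly(A)-selected RNA went into a directional kit. Values were rounded, filtered with filterByExpr and scaled by TMM. All 12 libraries were fitted with a mean per group in edgeR 4.0.16 (R 4.3.3; quasi-likelihood F-test, 8 residual degrees of freedom, biological coefficient of variation 8.90%), with Benjamini-Hochberg adjustment over 14279 genes. The design had assumed whole counts. On simulated data the fit recovered 134 of 200 changed genes in the comparison of CrOE EVs with untreated cells, with 6 false calls among 14033 genes. Just those 200 genes were changed in the simulation, whereas 73.7% of genes were called in the real comparison. Its rates therefore need not hold for these data. No 2 libraries held identical values.

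Genes are named by this rule: the 5 highest and 5 lowest log2 fold changes per comparison, the members of the role lists and paralogue pairs, and up to 4 called genes each way of the other lists; further names are given where a count is small. Some genes are counted in totals but not reported here by name. The members and lists were chosen with earlier results of these data known. Pseudogene rows were assigned to a member where at least 50% of their 31-base stretches (GENCODE M21) occurred in it, an analysis added after the data were seen. Other settings were DESeq2 1.42.0, other size factors and filters, a model of the 2 groups compared, the replicate number as a block, and each library left out.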

Additional observations from a re-analysis of the deposited data

How the results depend on the processing

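Counts of calls moved by less than 1.5 times under every alternative for CrOE EVs against untreated cells, shCon EVs and shCr EVs. Of their 62, 60 and 53 calls, 55, 55 and 37 were kept in every alternative. With single libraries left out the counts ran from 56 to 61, 55 to 58 and 44 to 68. Small counts moved more. For shCon EVs against untreated cells (1 call), 2 were made with total counts as size factors, with at least 10 counts required, with the replicate block, and with pseudogene rows added by name or by sequence, and 6 in the 2-group model; leaving out libraries gave 1 to 2. For shCr EVs against untreated cells (6 calls), 3 were made without a filter, 0 in the 2-group model, 10 with the replicate block and 1 at a fold of at least 1.2, and 0 to 17 with libraries left out. For shCr against shCon EVs (1 call), 0 were made with median-of-ratios size factors, without a filter, in the 2-group model, at a fold of 1.2 and on the sums by sequence, 2 by DESeq2, and 0 to 1 with libraries left out. The cause was not tested.

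The replicate number as a block gave 64, 62 and 61 calls for CrOE EVs against untreated, shCon and shCr cells. Correlations of deviations from the group mean ran from -0.204 to 0.315 between libraries with the same number (median 0.005, 5 of 18 over 0.1). Between libraries with different numbers they ran from -0.364 to 0.350 (median 0.0035, 7 of 36 over 0.1). With 3 libraries per group, these values cannot decide whether the numbers mark a pairing. Non-overlapping paralogue ratios numbered 15 to 18 of 24 with libraries left out.

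Some log2 fold changes that were not calls changed sign. For shCr EVs against untreated cells, Rpl27 was at 0.012 with pseudogene rows added by name and 0.0769 by sequence, and Rpl21 ran from -0.1705 without shCr replicate 1 to 0.0124 without replicate 3. For shCr against shCon EVs, Rpl12 was at 0.0795 on the sums and Rpl10 at 0.0573 with rows added by name. Rps26 was at -0.0047 with median-of-ratios size factors, -0.003 with total counts, -0.0049 by DESeq2, -0.0076 without a filter, -0.0034 with at least 10 counts and -0.0046 in the 2-group model. With single libraries left out, the ranges were -0.221 to 0.0371 for Rpl6l, -0.1472 to 0.068 for Rpl10, -0.0796 to 0.015 for Rpl4, -0.0267 to 0.0286 for Rps26, -0.0164 to 0.3588 for Rps24 and -0.0214 to 0.4422 for Rps21, the lowest of the last 5 being without shCr replicate 1.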
